A study of Mus musculus with 6 samples.

Results

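Heat shock proteins of the cytosol and mitochondria were examined in the livers of mice given deproteinized extract of calf blood (DECB), a protein-free blood preparation. The set was a list of 10 genes, Hspa1a, Hspa1b, Hspa8, Hsp90aa1, Hsp90ab1, Hspb1, Hspd1, Hspe1, Hsph1 and Dnajb1, found on the array through the RefSeq accession of each probe. Of these, 9 had at least 1 named probe (14 probes in all) and all 9 were well above background on all 6 arrays, among 14802 genes tested. Hspa1b had no named probe. Its neighbour and near-copy Hspa1a did, and which of the pair that probe reads is uncertain.

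RNA of whole liver came from male ICR mice, an outbred stock, and was hybridised to 1-colour Agilent arrays. The DECB group (3 arrays, DECB 4, 5 and 6) was given DECB into the stomach, and the control group (3 arrays, control 1, 2 and 3) normal saline. The daily volume in both was 0.08 mL for every 20 g that a mouse weighed, over 35 days. Per the labels 24 mice weighing 18 to 22 g were used, 12 a group. The sample descriptions give day 30 for DECB and day 1 for controls, which conflicts with the 35 days. If those days hold, day cannot be told apart from group. The study also timed hypoxia tolerance in closed containers, and the labels do not say whether livers were taken before or after it. Nothing ties an array to a mouse of its own, so p-values cover only how much these samples scatter, and that scatter may be technical.

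Heat shock proteins are molecular chaperones. HSP70 proteins bind exposed stretches of unfolded proteins in a cycle driven by ATP, with J-domain proteins to start the cycle and exchange factors to end it. HSP90 proteins finish the folding of kinases and hormone receptors, small heat shock proteins hold unfolding proteins without ATP, and the mitochondrial chaperonin encloses proteins in a barrel closed by a lid. Under heat, oxygen radicals or other damage to proteins, heat shock factor 1 (HSF1) binds inverted repeats of GAA in the promoters of the inducible members.

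Promoter windows of 4 members are printed to show those repeats: Hsph1 and Hspb1, whose levels did not overlap between the groups, and Hspa1a and Hspe1 beside them. RefSeq promoter windows of the GRCm38.p6 build run from 250 bases before to 50 bases after a gene's start. In the lines below capitals mark GAANNTTC (repeats head to head), TTCNNGAA (tail to tail) and 3 repeats in a row (GAANNTTC followed by NNGAA, or the reverse complement), which hold both kinds of pair. Hsph1 is given for the more downstream of its 2 starts, on the minus strand, chr5:149636266-149636565. The other windows are Hspb1 at chr5:135887669-135887968 on the plus strand, Hspa1a at chr17:34972107-34972406 on the minus strand and Hspe1 at chr1:55087898-55088197 on the plus strand.
Hsph1: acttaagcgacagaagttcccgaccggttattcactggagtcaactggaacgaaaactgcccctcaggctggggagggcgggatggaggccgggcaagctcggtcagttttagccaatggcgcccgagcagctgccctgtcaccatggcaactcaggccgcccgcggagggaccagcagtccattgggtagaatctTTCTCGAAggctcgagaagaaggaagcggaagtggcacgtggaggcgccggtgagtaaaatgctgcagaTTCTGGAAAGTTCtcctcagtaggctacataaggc
Hspb1: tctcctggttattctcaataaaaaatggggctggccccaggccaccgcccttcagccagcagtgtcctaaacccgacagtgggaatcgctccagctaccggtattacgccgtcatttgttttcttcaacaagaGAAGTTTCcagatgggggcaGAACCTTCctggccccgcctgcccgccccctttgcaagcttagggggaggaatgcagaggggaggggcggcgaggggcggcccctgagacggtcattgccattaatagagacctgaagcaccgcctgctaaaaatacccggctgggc
Hspa1a: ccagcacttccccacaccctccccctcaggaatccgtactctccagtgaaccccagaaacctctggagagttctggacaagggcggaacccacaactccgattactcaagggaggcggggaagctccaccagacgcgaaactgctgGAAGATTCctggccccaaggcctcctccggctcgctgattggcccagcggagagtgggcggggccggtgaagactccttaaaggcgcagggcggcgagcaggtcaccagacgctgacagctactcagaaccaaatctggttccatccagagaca
Hspe1: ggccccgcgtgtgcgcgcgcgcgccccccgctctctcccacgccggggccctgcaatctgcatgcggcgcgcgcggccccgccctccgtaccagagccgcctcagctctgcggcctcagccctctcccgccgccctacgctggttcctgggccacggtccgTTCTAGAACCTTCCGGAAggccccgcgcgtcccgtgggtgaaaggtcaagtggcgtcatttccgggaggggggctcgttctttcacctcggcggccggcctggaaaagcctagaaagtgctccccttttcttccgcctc
Hspd1 and Hspe1 are read in opposite directions from 1 stretch of DNA, and the Hspe1 window shared 285 of 300 bases with 1 of the 2 Hspd1 windows. The Hspa1a and Hspa1b windows were identical at 296 of 300 positions.

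In these windows 3 repeats in a row stood in Hsph1, 16 to 28 bases after the start shown, and in the Hspd1 and Hspe1 window, from 89 bases before the Hspe1 start. Hspb1 held 2 head-to-head pairs, which began 117 and 97 bases before its start, and Hspa1a held 1, which began 104 bases before. The table held windows of 7 members, and a head-to-head pair was found in 6 of them. Counted by window, 7 of 10 held it, but several of these windows overlap or nearly match. The exception, Dnajb1, held neither kind of pair in either of its windows. Over all 32851 windows of the table, 7.86% held a head-to-head pair, 8.52% a tail-to-tail pair and 0.603% 3 repeats in a row. The endoplasmic reticulum (ER) stress element, CCAAT and CCACG with 9 bases of any kind between them, on either strand, was found in 0.119% of all windows, in none of the 7 members and in 6 of 12 genes of ER lumen chaperones. None of those 12 ER genes, each with 1 window, held a pair of either kind, which was not tested against the shares of all windows. A match of letters describes the window and shows no binding.

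Levels are given as the log2 of the processed signal relative to the 75th percentile of the same array, so a value of 0 is as bright as that percentile. Such levels compare arrays for 1 gene and not genes with each other. Shared scan times in the file headers put the arrays in 3 sets, called slides here. DECB 6 and control 1 shared slide 1, DECB 4 shared slide 2 with controls 2 and 3, and DECB 5 was alone on slide 3. Slide 1 was dim, with a 75th percentile 3.75 to 4.04 times the local background against 25 to 30.6 times on the other arrays. Between 14953 and 29553 of 39429 probes per array were well above background. Differences within slides 1 and 2, and from a limma fit with a term for each slide (the blocked fit), are therefore given beside the results they touch. The blocked fit takes nothing from DECB 5 and leaves 2 residual degrees of freedom. Its differences rest on DECB 6 against control 1 and on DECB 4 against controls 2 and 3. In that fit 4264 of all 14802 genes had an unadjusted p under 0.05, against 1480 in the limma fit without slides.

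Hsp90aa1, Hspb1 and Hsph1 lay higher on every DECB array than on any control array, with group means 2.69-fold to 2.94-fold higher. Hspa1a, the stress-inducible HSP70, Hspa8, Hspd1, Dnajb1, Hsp90ab1 and Hspe1 overlapped between the groups. In the limma fit over all genes, 0 of the 9 members passed an adjusted p of 0.05 in either direction, where 0.209% of all genes passed as higher, 0.257% as lower and 0.466% in either direction. At an unadjusted p under 0.05, 3 of 9 members were higher and 0 lower, against 4.22% and 5.78% of all genes (10% in either direction). In the blocked fit 3 members passed as higher and 0 as lower, against 2.74% and 3.93% of all genes (6.67% in either direction). Groups did not overlap for 3 of 9 members, all higher, against 7.24% of genes higher and 9.39% lower without overlap (16.6% in either direction). The members' median difference was 0.59, with 8 of 9 above 0. The median of all 14802 genes was -0.03, with 7037 above 0 and 7765 below. The plot of every array shows the 3 genes without overlap beside the 6 with it.

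**Figure D1:**
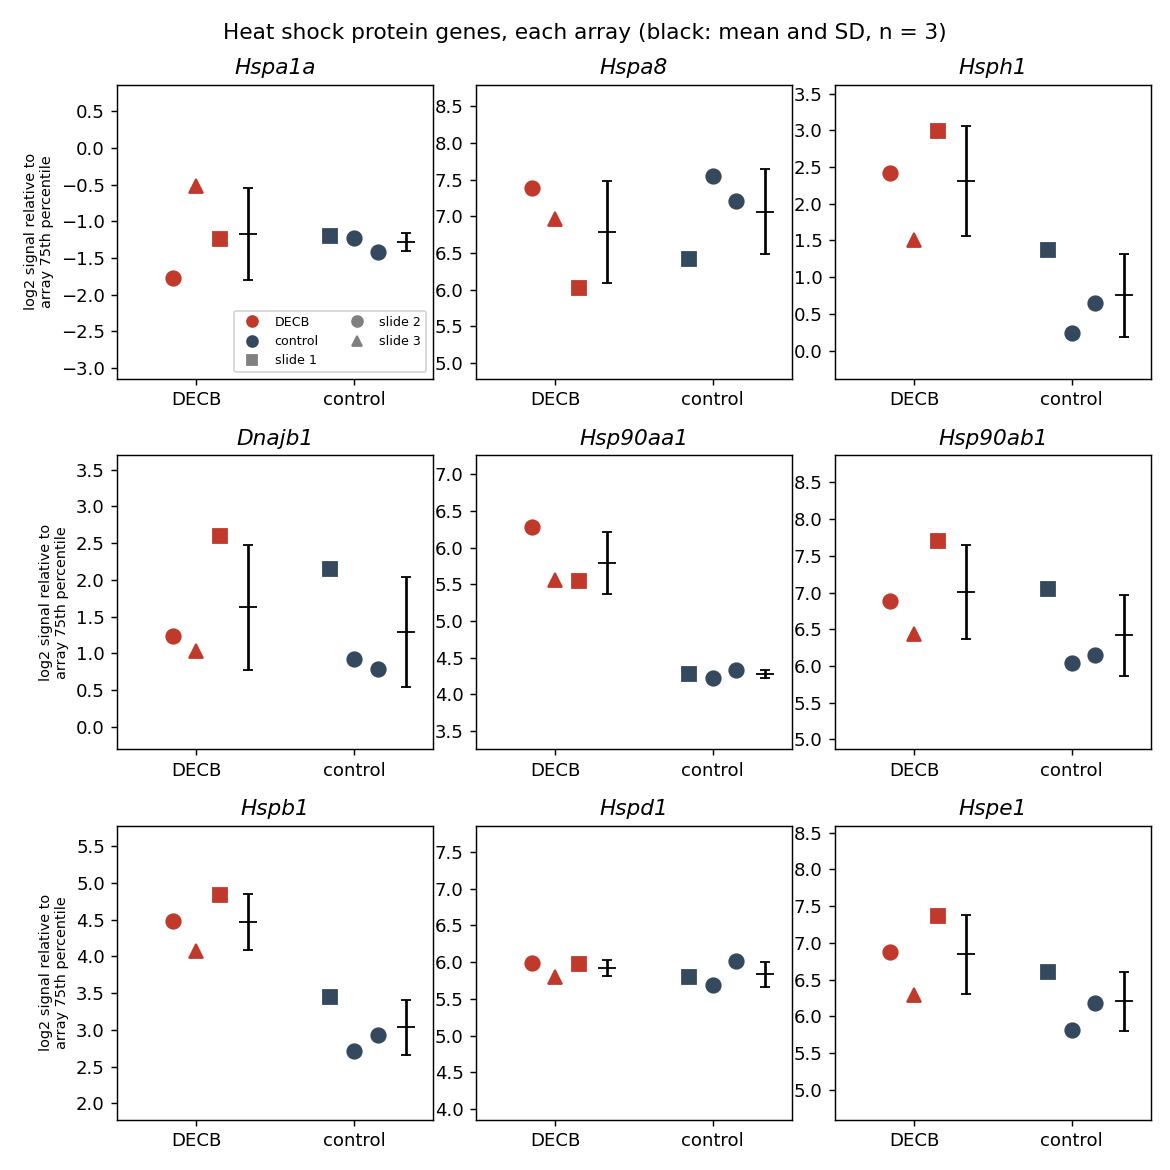
Signal on a log2 scale, with each array's 75th percentile at 0 (y axis), of the 9 measured heat shock protein genes on each DECB (left, red) and control (right, dark blue) array; the marker shape gives the slide, and black bars give the group mean and SD (n = 3). Each panel spans 4 log2 units. Hsp90aa1, Hspb1 and Hsph1 show no overlap between groups, and Dnajb1 separates the squares of slide 1 from the other arrays.

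Among the HSP70 proteins, Hspa1a is the form made under heat or damage. Its signal was -1.77, -0.52 and -1.24 on DECB arrays 4, 5 and 6, against -1.20, -1.22 and -1.42 on control arrays 1, 2 and 3. The controls lay close together and inside the range of the DECB arrays, whose highest was DECB 5 and lowest DECB 4. The difference was 0.11 (SE 0.37, 95% interval -0.77 to 0.99, limma adjusted p = 1). Within slides 1 and 2 the difference was -0.03 and -0.45, and in the blocked fit it was -0.27. The difference was 0.41 without DECB 4 and -0.22 without DECB 5.

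Hspa8 is the HSP70 that cells make at all times. It stood at 7.39, 6.96 and 6.03 on the DECB arrays and at 6.42, 7.55 and 7.21 on the control arrays. The arrays of slide 1, DECB 6 and control 1, were the lowest of their groups. Hspa8 differed by -0.27 (SE 0.46, 95% interval -1.36 to 0.82, limma adjusted p = 0.986). Its other probes differed by -0.16 and -0.22.

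Hsph1, of the HSP110 family, holds unfolded proteins and renews the ATP of HSP70. It stood at 2.42, 1.51 and 2.99 on the DECB arrays and at 1.37, 0.24 and 0.65 on the control arrays. The lowest DECB array, DECB 5, exceeded the highest control, control 1, by a margin that was small beside the SD of 0.75 in DECB and 0.57 in controls. The difference was 1.55 (SE 0.48, 95% interval 0.43 to 2.68, limma adjusted p = 0.297), a 2.94-fold higher level. It was 1.63 within slide 1, 1.98 within slide 2 and 1.83 in the blocked fit (limma adjusted p = 0.0246). A second Hsph1 probe differed by 1.63 and also showed no overlap between the groups.

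Dnajb1, a J-domain protein that loads clients onto HSP70, followed the slides. It stood at 1.24, 1.03 and 2.60 on the DECB arrays and at 2.15, 0.93 and 0.79 on the control arrays. DECB 6 and control 1, both of slide 1, were the highest of all. DECB 6 exceeded the mean of the other DECB arrays by 1.47 and control 1 that of the other controls by 1.29, while the groups differed by 0.34 (SE 0.55, 95% interval -0.96 to 1.64, limma adjusted p = 0.983). Without DECB 6 the difference was -0.15.

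The cytosol holds an inducible HSP90, Hsp90aa1, and a steadily made one, Hsp90ab1. Hsp90aa1 stood at 6.28, 5.56 and 5.54 on the DECB arrays, against 4.28, 4.23 and 4.34 on the control arrays. Its controls agreed across slides within an SD of 0.05, and the lowest DECB array was above all of them. Hsp90aa1 averaged 5.79 ± 0.42 in DECB and 4.28 ± 0.05 in controls (SD, n = 3 each), a difference of 1.51 (SE 0.31, 95% interval 0.78 to 2.24) or 2.85-fold. It had the smallest p of the members (unadjusted 0.0017, limma adjusted p = 0.114). The difference was 1.26 within slide 1, 1.99 within slide 2 and 1.68 in the blocked fit (limma adjusted p = 0.032).

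Hsp90ab1 stood at 6.89, 6.43 and 7.70 on the DECB arrays and at 7.06, 6.04 and 6.16 on the control arrays. Only control 1 reached into the range of the DECB arrays, and within each slide DECB was higher, by 0.64 on slide 1 and 0.79 on slide 2. The difference over all arrays was 0.59 (SE 0.44, 95% interval -0.46 to 1.63, limma adjusted p = 0.808, blocked adjusted p = 0.0625).

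Hspb1, a small heat shock protein that holds unfolding proteins and binds actin, stood at 4.48, 4.08 and 4.84 on the DECB arrays, against 3.45, 2.72 and 2.94 on the control arrays. The groups were apart on every slide that held both. Hspb1 averaged 4.46 ± 0.38 in DECB and 3.03 ± 0.38 in controls (SD, n = 3 each), a difference of 1.43 (SE 0.34, 95% interval 0.63 to 2.23, limma adjusted p = 0.159) or 2.69-fold. It was 1.39 within slide 1, 1.65 within slide 2 and 1.54 in the blocked fit (limma adjusted p = 0.0245).

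The mitochondrial chaperonin is made of Hspd1 (HSP60, the barrel) and Hspe1 (HSP10, the lid). Hspd1 stood at 5.99, 5.80 and 5.98 on the DECB arrays and at 5.79, 5.69 and 6.02 on the control arrays. The groups overlapped, with an SD of 0.11 in DECB and 0.17 in controls, and Hspd1 differed by 0.09 (SE 0.26, 95% interval -0.53 to 0.71, limma adjusted p = 1). Hspe1 stood at 6.88, 6.29 and 7.37 on the DECB arrays and at 6.61, 5.82 and 6.18 on the control arrays. DECB 5 lay inside the control range, and the difference was 0.65 (SE 0.38, 95% interval -0.25 to 1.54, limma adjusted p = 0.698, blocked adjusted p = 0.0682). Within slides 1 and 2 Hspe1 differed by 0.76 and 0.88, and Hspd1, read from the same stretch of DNA, by 0.19 and 0.14. Whether the pair differed from each other was not tested.

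**Figure D2:**
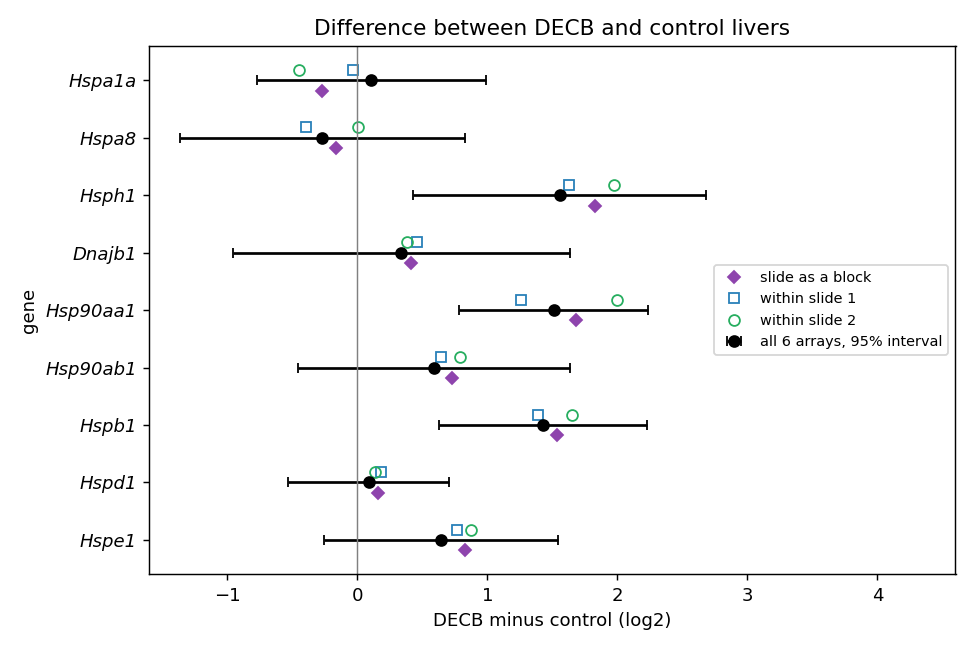
DECB minus control in log2 units (x axis) for each heat shock protein gene (y axis). Black points and bars give the fit over all 6 arrays with its 95% interval, diamonds the blocked fit, and open markers the difference within slide 1 and within slide 2. The intervals of Hsph1, Hsp90aa1 and Hspb1 lie above 0 before adjustment for the 14802 genes tested, and those of the other 6 genes cross it.

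Several members also differed between slides within a group. DECB 6 exceeded the mean of DECB 4 and 5 by 1.04 for Hsp90ab1, 1.03 for Hsph1, 0.56 for Hspb1 and 0.78 for Hspe1. Control 1 exceeded the mean of controls 2 and 3 by 0.96 for Hsp90ab1, 0.92 for Hsph1, 0.62 for Hspb1 and 0.61 for Hspe1. Hspa8 ran the other way, with -1.14 in DECB and -0.96 in controls, and Hspd1 and Hsp90aa1 were within 0.38 of the other arrays of their group. With slide as a random block, the correlation of arrays of 1 slide over all genes was estimated at 0.82. The slide term was not tested for single members.

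The probes of a gene did not all share that pattern. The second probe of Hspa8 differed on slide 1 from the other arrays by -2.71 in DECB and -2.43 in controls, whereas the third differed by -0.02 and -0.11. The third probe of Hspe1 differed on slide 1 by -2.85 in DECB and -3.47 in controls, although the other 2 probes of that gene were higher there. That probe gave a difference of 1.20 between groups (SE 1.17), against 0.65 and 0.70 for the other probes. Both probes of Hsph1 were higher on every DECB array than on any control array, while their slide 1 excess differed, at 1.03 and 0.42 in DECB and 0.92 and 0.38 in controls. The highest Hsph1 array was DECB 6 on the first of these probes and DECB 4 on the second.

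**Figure D3:**
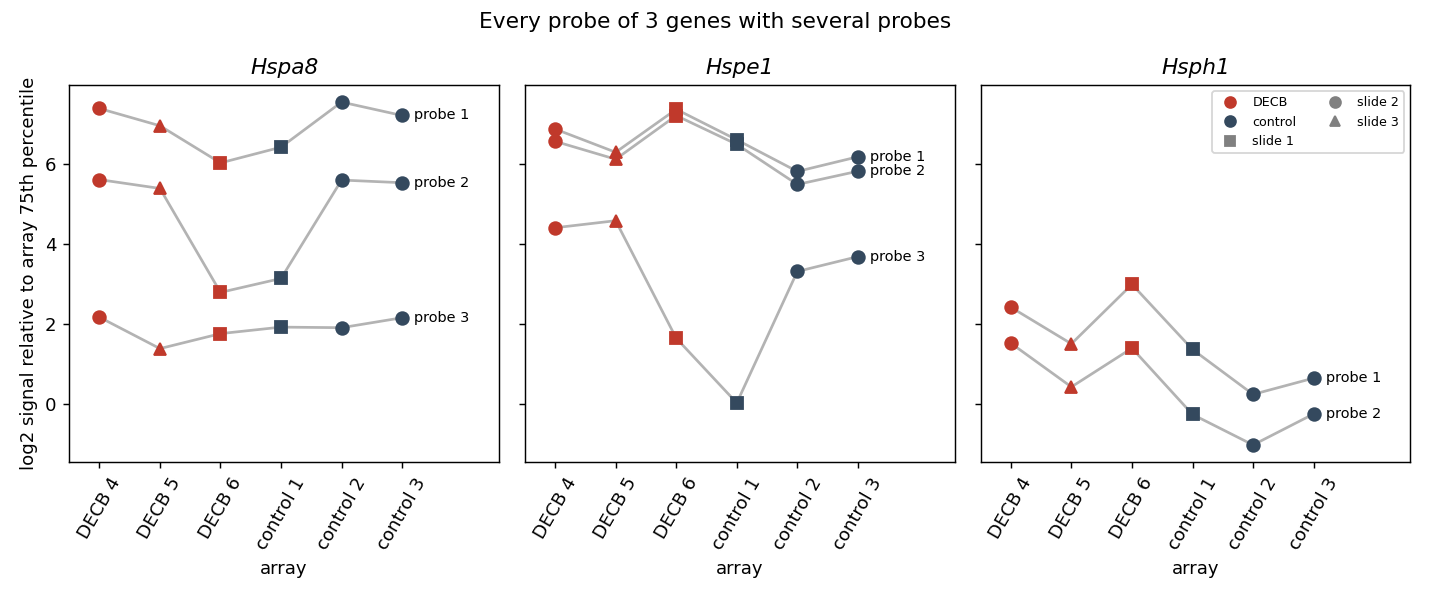
Signal on a log2 scale, with each array's 75th percentile at 0 (y axis), of each probe of Hspa8, Hspe1 and Hsph1 on the 6 arrays (x axis, DECB first); grey lines join the arrays of 1 probe, colour gives the group and marker shape the slide. Levels compare arrays along 1 line only. One probe of Hspa8 and one of Hspe1 lie low on the 2 arrays of slide 1 (squares), with differences of -2.43 to -3.47, and both Hsph1 probes are higher on all DECB arrays than on any control array.

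By the rule that Hspa1b, or else Hspa1a, serves as the pattern, the genes most like Hspa1a over the 6 arrays were Cacng2, Ggact, Pgf, 4930563E22Rik and Gpr161, with Pearson's r of 0.96 to 0.99. This is a description over 6 arrays, chosen from 14802 genes. All but Ggact were dim, with levels of -4.67 to -1.03 over the 6 arrays. None of these 5 passed the test between groups (limma adjusted p of 0.978 or above), and what they share with Hspa1a is a peak on DECB 5, alone on slide 3, and a low on DECB 4.

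The wider chaperone network was read from lists of pathway genes, and 0 of their genes passed the test outside the ER. Of 17 HSP90 cochaperones tested, 0 passed (limma), with a median of 0.30. At an unadjusted p under 0.05, 3 were higher and 1 lower, against 4.22% and 5.78% of all genes. Stip1, which hands clients from HSP70 to HSP90, stood at 2.29, 2.26 and 2.64 on the DECB arrays, against 1.05, 0.74 and 0.59 on the control arrays. It differed by 1.60 (SE 0.28, limma adjusted p = 0.0775, blocked adjusted p = 0.0194), a smaller p than any of the 9 heat shock proteins had. Fkbp4, an HSP90-bound immunophilin of steroid receptor complexes, differed by 1.52 (adjusted p = 0.215, blocked adjusted p = 0.03). Fkbp5, its glucocorticoid-induced relative with the opposite effect on those receptors, differed by -1.22 (adjusted p = 0.149, blocked adjusted p = 0.0499). DECB was above all controls for Fkbp4 and below all for Fkbp5.

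The list of 19 genes that HSF1 is known to induce shares Stip1 and Fkbp4 with the cochaperones. Of these 19, 16 lay above 0, against 7037 of all 14802 genes, and the list's median was 0.35. In limma 0 passed, and 4 were higher and 0 lower at an unadjusted p under 0.05, against 4.22% and 5.78% of all genes. In the blocked fit 5 passed as higher, against 2.74% of all genes. Bag3, which links HSP70 to autophagy and is a known HSF1 target, stood at 1.93, 1.25 and 1.38 on the DECB arrays and at 0.58, 0.82 and 0.74 on the control arrays. It differed by 0.80 (SE 0.30, adjusted p = 0.423, blocked adjusted p = 0.0438). Hspa4l differed by 0.83 (adjusted p = 0.37). The factor itself, Hsf1, differed by 0.33 (SE 0.50), and Hsf2 by -0.50 and Hsbp1, an HSF1-binding protein, by 0.14, none near the threshold (adjusted p of 0.919 or above).

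Other HSP70 proteins numbered 7, with 0 past adjustment in limma and a median of 0.38. At an unadjusted p under 0.05, 2 were higher and 1 lower, against 4.22% and 5.78% of all genes. Hspa13, which sits in microsomes rather than the cytosol that the list is named for, differed by 1.37 (SE 0.32, adjusted p = 0.151, blocked adjusted p = 0.02). Hspa2, known from spermatogenesis, differed by -1.02 (SE 0.26, adjusted p = 0.192, blocked adjusted p = 0.0392). Of 16 J-domain proteins 0 passed in limma, and the median was 0.39. At an unadjusted p under 0.05, 1 was higher, against 4.22% of all genes. Dnajb2, Dnajc2 and Dnajb12 differed by 1.09, 1.23 and -0.67 (adjusted p of 0.417 to 0.59). Dnajb2 alone of the 16 passed in the blocked fit (adjusted p = 0.0393), where 2.74% of all genes passed as higher. Of 9 HSP70 partner proteins 0 passed in limma, and Hspbp1, an exchange factor, was at 0.50. At an unadjusted p under 0.05 Bag3 was higher and Bag4 (-0.79) lower, against 4.22% and 5.78% of all genes. Of 7 further small heat shock proteins 0 passed in limma and 0 had an unadjusted p under 0.05, with Cryaa at 1.36, Hspb8 at 0.72 and Hspb6 at 0.50 (adjusted p of 0.511 to 0.82). In the blocked fit 2 of the 7 passed as higher, Cryaa and Hspb8 (adjusted p = 0.0433 and 0.0442), against 2.74% of all genes.

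The cytosolic chaperonin CCT, a barrel that folds actin and tubulin, had all 8 subunits above 0 with a median of 0.41. Of all 14802 genes 7037 were above 0. Of the 8 subunits 0 passed in limma, and 1, Cct3, was higher at an unadjusted p under 0.05, against 4.22% of all genes. Cct3 differed by 1.19 (SE 0.27, adjusted p = 0.142, blocked adjusted p = 0.035), Cct6a by 0.61 and Cct5 by 0.43. Prefoldin, which delivers actin to CCT, had a median of 0.21 over 6 subunits. Pfdn4 differed by 0.82, Vbp1 by 0.32 and Pfdn6 by 0.22 (adjusted p of 0.34 to 0.955). Of these 6 subunits 0 passed in limma, and 1, Pfdn4, was higher at an unadjusted p under 0.05, against 4.22% of all genes. Mitochondrial chaperones and proteases beyond the chaperonin had a median of -0.23 over 14 genes. Below 0 lay 11 of the 14, against 7765 of all 14802 genes. In limma 0 passed, and 1, Clpx, was lower at an unadjusted p under 0.05, against 5.78% of all genes. Clpx, which unfolds proteins for the Clp protease, differed by -1.12 (SE 0.36, adjusted p = 0.324, blocked adjusted p = 0.0461), Yme1l1 by 0.59 and Lonp1 by -0.60. In the blocked fit 2 passed as lower, Clpx and Dnajc19, against 3.93% of all genes. The mitochondrial HSP70, Hspa9, and the mitochondrial HSP90, Trap1, differed by -0.23 and -0.24 (adjusted p = 0.974 and 0.952).

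The ER forms of the same families were set beside the cytosolic ones. Of 13 ER lumen chaperones tested, 5 rose, Sdf2l1, Hspa5, Dnajb11, Pdia4 and Hsp90b1, against 0.209% of all genes, and the list's median was 1.99. The limma count was 8 in the blocked fit, which added Calr, Pdia3 and Pdia6, against 2.74% of all genes. It was 3 without slide 1 or without DECB 6, and 0 without any 1 of the other 5 arrays, with no filter on dim probes or with controls 2 and 3 averaged. The list's median was 1.78 to 2.17 over 17 alternatives. Hspa5 (BiP), the HSP70 of the ER, stood at 7.95, 7.80 and 7.72 on the DECB arrays, against 5.58, 5.33 and 5.14 on the control arrays, and rose by 2.47 (SE 0.27, limma adjusted p = 0.0294). Hsp90b1, the HSP90 of the ER, rose by 1.99 (SE 0.26, adjusted p = 0.0402). Within an array, the log2 ratio of Hspa5 to Hspa8 was 1.03 ± 0.59 in DECB and -1.71 ± 0.76 in controls (SD, n = 3 each), a difference of 2.74 with no overlap between groups. Since levels do not compare genes, the sign of such a ratio has no meaning and only its difference between groups can be read. The 2.74 contains the Hspa5 difference of 2.47 and is not separate from it. The ratio of Hsp90b1 to Hsp90ab1 differed by 1.41 and that of Hsp90b1 to Hsp90aa1 by 0.49, both without overlap. Both likewise contain the Hsp90b1 difference of 1.99 and are not separate from it. For each of these 3 ratios the exact permutation test, two-sided, gave p = 0.1, the smallest that 3 against 3 arrays allow (0.133 after Benjamini-Hochberg adjustment over 4 ratios). The ratio of Hspa9 to Hspa8 differed by 0.04 (exact p = 0.9).

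**Figure D4:**
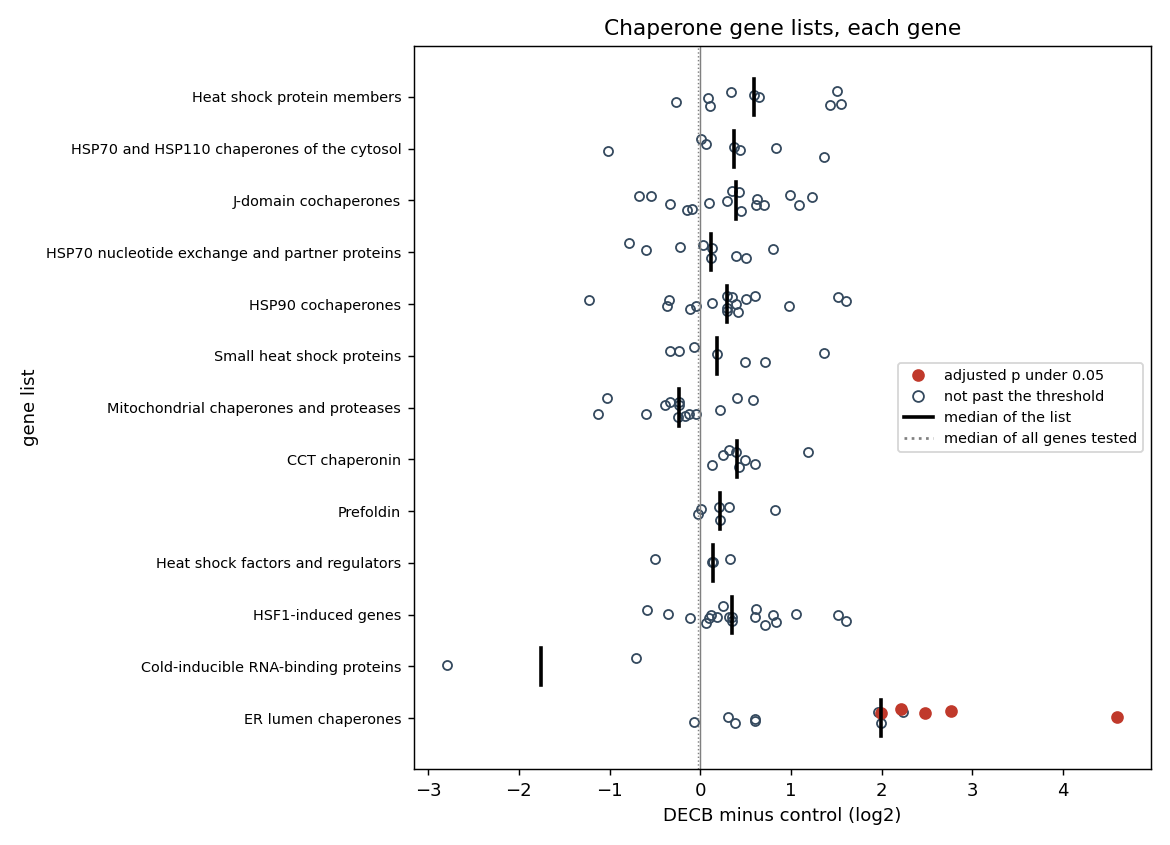
DECB minus control in log2 units (x axis) of each gene tested in 13 gene lists (y axis); filled red points passed an adjusted p of 0.05 in limma, open points did not, thick bars mark the list's median and the dotted line the median of all genes. Filled points appear in the ER lumen chaperones alone, whose median is 1.99, and the heat shock protein members have a median of 0.59.

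Markers of liver cell types were read beside these results. All 10 hepatocyte markers were measured, and their summed signal (the sum over genes of signal divided by the array's 75th percentile) was 2177 to 2768 in DECB and 2488 to 2942 in controls. Macrophage (7 of 8 genes), endothelial (8 of 8), stellate (7 of 8) and lymphocyte (5 of 8) sums overlapped between groups, at 20.1 to 22.9, 16.9 to 33.5, 19.6 to 43.3 and 7.11 to 30.0 in DECB against 20.4 to 27.3, 23.4 to 41.5, 31.4 to 58.0 and 9.66 to 48.0 in controls. Cholangiocyte sums, over 4 of 7 genes, were 2.37 to 32.1 in DECB and 1.21 to 7.44 in controls, with Krt7 not above background on any array. Erythroid sums, over 5 of 6 genes, were 16.2 to 41.9 in DECB and 65.0 to 98.4 in controls, without overlap. The erythroid genes did not all go the same way. Hbb-bt and Hba-a1 differed by -2.29 and -1.73 without overlap. Hbb-bs, Slc4a1 and Alas2 overlapped between groups, with differences of -1.28, -0.13 and 0.88. Alas2 was higher in DECB within slides 1 and 2, by 0.92 and 1.13. Neutrophil sums, over 3 of 7 genes, were 59.6 to 64.8 in DECB and 73.7 to 101 in controls, also without overlap. That sum is mostly Csf3r, which differed by -0.55 (limma adjusted p = 0.594), while S100a8 and S100a9 differed by 1.57 each (limma adjusted p = 0.101 and 0.168, blocked adjusted p = 0.0309 and 0.0215). These 3 were singled out after their values were seen. No marker passed in limma over all arrays. In the blocked fit 2 of 3 neutrophil markers tested passed as higher, S100a8 and S100a9. There 1 of 8 endothelial markers, Stab2, passed as lower (difference -0.996, blocked adjusted p = 0.0463). Of 10 hepatocyte, 7 macrophage, 7 stellate, 4 cholangiocyte, 6 lymphocyte and 5 erythroid markers, 0 passed in that fit. Of all genes 2.74% passed there as higher and 3.93% as lower (6.67% in either direction). What part the blood cells have in the heat shock protein differences was not tested, and in bulk liver fewer cells of a type and less RNA per cell cannot be told apart.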

How the data were processed

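Scanner output of 6 arrays was used, 3 DECB and 3 control, grouped by sample title. Per the file headers the intensity values, the processed Cy3 signal, were background-subtracted and detrended by Agilent Feature Extraction 11.0.1.1, with no normalization between arrays, and the median spot and background intensity are as deposited. The deposited value table, on what appears to be a log2 scale (column medians 5.35; centring and direction unknown), was not used: its columns correlated at 0.74 to 0.77 with their own arrays, 2 of 6 arrays matched their own column best, and its DECB minus control differences correlated at -0.04 with those of the arrays across 39429 probes. The differences reported here are therefore not those of the deposited table.

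Signals were divided by each array's 75th percentile over 43020 non-control spots and log2-transformed. Flagged outlier spots (164 to 322 per array) were left out and spots of a probe averaged. A probe was kept if 3 or more arrays had it well above background (25418 of 39429). Names came from RefSeq accessions (GRCm38.p6 table, 27228 of 28684 matched; the array was designed on mm9). Of a gene's kept probes the brightest stood for it. Two-sided tests were made with limma 3.58.1 in R 4.3.3 (lmFit and eBayes) and adjusted over 14802 genes by Benjamini-Hochberg, after a test on simulated data; 3 arrays a group limit the precision. Array intensities give no counts, so no counting interval applies.

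Members and lists were chosen with earlier results of these data known. Named were all members, the 3 genes with the smallest p of each chaperone list and list genes past the threshold, the 5 genes most like Hspa1a, and the direct ER and mitochondrial counterparts. The alternatives changed background correction, normalization, scaling, filter, slide, replicates, probe rule and variance model. Since the files hold no mean spot signal, normexp used the median signal.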

Additional observations from a re-analysis of the deposited data

How the results depend on the processing

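Counts over all genes depended on the setting. Against 31 higher and 38 lower genes in limma, 15 and 22 passed with quantile normalization, 60 and 52 with scaling to the median of bright probes, 0 and 0 with no filter on dim probes (1256 at an unadjusted p under 0.05), 0 and 2 with controls 2 and 3 averaged (882), and 9 and 14 probes when every probe was tested on its own. With slide as a fixed block 405 and 582 passed, with slide as a random block 929 and 1297, and with array weights and an intensity trend 504 and 847; the fixed block leaves 2 residual degrees of freedom and takes nothing from DECB 5. With 1 array left out, 0 to 18 higher and 0 to 35 lower genes passed (852 to 2117 at an unadjusted p under 0.05). Members passed in these 3 models alone: 3 (Hsp90aa1, Hspb1 and Hsph1) with the fixed block and with array weights, and 4 with the random block, which added Hspe1; elsewhere 0 passed, with 2 to 4 at an unadjusted p under 0.05. The closest pairs of arrays shared a slide: controls 2 and 3 (Pearson's r across genes 0.992), then DECB 6 and control 1, of opposite groups (0.968); other pairs had 0.901 to 0.963. The members' median of 0.59 was 0.87 with quantile normalization, 0.79 within slide 2 and 0.24 (without DECB 6) to 0.87 (without DECB 5) with 1 array left out; it was 0.85 without control 1 and 0.40 without control 2. Over 19 alternatives Hsp90aa1 ran from 1.26 to 1.99, Hspb1 from 1.24 to 1.65 and Hsph1 from 1.21 to 1.98, all above 0; Hspa1a was below 0 in 5, Hspa8 above 0 in 2 and Dnajb1 below 0 in 1. The cause of these shifts was not tested. Slide 1, at 3.75 to 4.04 times its local background, limits the precision of DECB 6 and control 1. No paired analysis was possible because the titles number DECB samples 4 to 6 and controls 1 to 3, so the groups share no replicate number; slide was the block used in its place.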

Other observations

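Both cold-inducible RNA-binding proteins, which cells make more of when cooled and less of when warmed, lay lower on every DECB array than on any control array. Cirbp stood at -2.19, -1.16 and 0.16 on the DECB arrays, against 2.57, 1.47 and 1.13 on the control arrays. It differed by -2.79 (SE 0.65, limma adjusted p = 0.155, blocked adjusted p = 0.0209), and by -2.41 within slide 1 and -3.49 within slide 2. Rbm3 stood at 2.44, 2.71 and 3.16 on the DECB arrays, against 3.78, 3.50 and 3.18 on the control arrays, and its lowest control and highest DECB array nearly touched. It differed by -0.71 (SE 0.32, adjusted p = 0.534, blocked adjusted p = 0.077). Neither passed over all genes, where 9.39% of 14747 genes with a value on every array were lower without overlap between groups. Over 17 alternatives the pair's median stayed below 0, from -2.15 to -1.39.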
